A study of Homo sapiens with 6 samples.

Results

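The 4 HOX clusters of the human genome were examined in RNA-seq libraries of LN229 cells, an established human glioblastoma cell line, with the PARP3 gene intact (WT) or disrupted with CRISPR/Cas9 (PARP3-/-). Members were taken as the protein-coding genes whose symbol is HOX, a cluster letter from A to D and a number. This gave 38 of the 33841 genes listed, namely 11 of HOXA on chromosome 7, 9 of HOXB on chromosome 17, 9 of HOXC on chromosome 12 and 9 of HOXD on chromosome 2 (hg38). HOXB1 is not analysed here. Each genotype had 3 biological replicates, and the cells were proliferating in serum-containing medium. The series' design text places the disruption from exon 2 to exon 9 of PARP3, whereas the guides described in the methods lie in exons 2 and 5. The deletions that the paper shows for its PARP3-/- LN229 clones, on both alleles, end at these guide sites. The paper also checked its clones for loss of the protein by western blot. The wording of the series was not reconciled with this. PARP3-/- LN229 lines were grown from single edited cells, and the labels do not name the clone that was sequenced, so that differences between clones and the effect of the genotype cannot be told apart.

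HOX genes encode homeodomain transcription factors that give cells of the embryo their position along the head-to-tail axis. Each cluster arose by duplication of a common ancestor, and genes at the same place in different clusters form a paralogue group numbered from 1 at the anterior end to 13 at the posterior end. Their transcription follows their order in the cluster, is opened by retinoic acid, is held off by Polycomb complexes and is maintained by the MLL (trithorax) methyltransferases. The adult forebrain expresses few of these genes, whereas glioblastomas often express many of them. HOX proteins bind DNA together with the TALE homeodomain cofactors PBX and MEIS.

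The libraries held 29692065 to 46010369 counts on genes. Levels are given as CPM (counts normalised to the size of each library with TMM). A level of 3 counts, taken as the limit of detection, corresponded to 0.0674 to 0.0996 CPM and covers counting error only. Genes with enough counts in at least 3 libraries were tested with edgeR's quasi-likelihood test, and a call is an adjusted p under 0.05 over the 17144 genes tested. Replicate 1 of both genotypes stood apart from replicates 2 and 3, and same-numbered libraries deviated together, most clearly those of replicate 1, so that calls are also given with the replicate number as a block and with both replicate 1 libraries left out. The targeted gene, PARP3 (ENSG00000041880), had 1273, 942 and 995 counts in the WT libraries against 574, 1004 and 736 in the PARP3-/- libraries, with overlapping genotypes (log2 fold change -0.42, adjusted p = 0.307; 0.0469 with the block). The genotype of a library therefore rests on its label. Of the neural markers, vimentin (3760 CPM in WT) and nestin (927 CPM) were abundant, while the astrocyte marker GFAP was at 0.253 CPM and SOX9 at 0.00913. Of the 10 neural and glioma markers tested 8 had negative log2 fold changes (median -0.29), against 8790 of all 17144 tested genes (median -0.01). edgeR called 1 lower in PARP3-/- (3.33% of all genes), S100B, a glial calcium-binding protein (194 against 93.1 CPM, adjusted p = 0.0256). DESeq2 called 3 lower (3.84% of its genes) and edgeR with the block 5 (12.5% of all genes). The other 4 with the block were FABP7 (62.2 against 25.5 CPM), OLIG2 (13.72 against 9.53), SOX2 (38.8 against 31.0) and CD44 (572 against 480), with adjusted p-values of 0.0577, 0.08, 0.335 and 0.224 without the block and 5.38e-07, 0.00152, 0.00516 and 0.00721 with it. The summed haematopoietic markers did not exceed 6 counts in a library, and of 4 epithelial markers listed KRT14 alone was tested, at 3.68 CPM in WT and 2.81 in PARP3-/- (adjusted p = 0.784; lower with the block, 0.049). Whether these differences between the genotypes bear on the HOX genes was not tested.

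LN229 cells expressed members of all 4 clusters. Every library exceeded 3 counts for 36 of the 38 genes, 24 genes averaged more than 1 CPM over the 6 libraries and 6 averaged more than 10 CPM. HOXA4 was at or under 3 counts in every library, with 2, 0 and 0 counts in WT and 1, 1 and 0 in PARP3-/-. HOXB2 had 2 to 7 counts and HOXC5 had 6 to 16, and these 3 genes did not pass the filter. The remaining 35 genes were tested.

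HOXB7, a central gene of HOXB, had the highest level of the family. It was at 45.6, 52.0 and 51.4 CPM in WT replicates 1, 2 and 3 and at 48.4, 60.9 and 57.7 CPM in PARP3-/-. It held 21.6% of the summed HOX level in WT and 25.3% in PARP3-/-. Per kb of annotated exon (GENCODE 44), HOXB7 stood at 32.7 ± 2.33 CPM per kb in WT (SD, n = 3), above HOXD8 with 7.86 ± 0.43, HOXC9 with 6.67 ± 1.12, HOXB9 with 6.43 ± 3.66, HOXD9 with 5.18 ± 0.31 and HOXC10 with 4.87 ± 0.05. HOXB7 was separated from the next gene, HOXD8, in all 3 WT libraries, and HOXD8 from the next, HOXC9. The WT range of HOXB9, 4.22 to 10.7 CPM per kb, spanned that of HOXD8, 7.6 to 8.36. HOXC9, HOXB9, HOXD9 and HOXC10 each overlapped their neighbour in the order. HOXB7 ranked first also when levels were divided by the median transcript length in the deposited table, whereas HOXC10 moved from rank 6 to rank 2 and HOXA3 from 18 to 5, so the order below HOXB7 depends on the length used.

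Within HOXA the highest genes per kb were HOXA10, HOXA5 and HOXA6. HOXA10, a posterior gene, was at 14.2, 13.2 and 14.4 CPM in WT and at 10.4, 13.8 and 12.97 CPM in PARP3-/-. HOXA5 was at 5.81, 4.53 and 5.68 CPM in WT and at 5.44, 4.42 and 4.82 CPM in PARP3-/-. HOXA6 was at 4.03, 3.36 and 3.59 CPM in WT and at 3.68, 2.72 and 2.91 CPM in PARP3-/-. The genotypes overlapped for all 3 of these genes, and their smallest adjusted p was 0.588. HOXA9, which lies next to HOXA10, was at 0.399 CPM in WT and 0.276 CPM in PARP3-/-.

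In HOXB, HOXB9 and HOXB6 followed HOXB7. HOXB9 was at 27.6 CPM in WT replicate 1 against 11.4 and 10.9 in replicates 2 and 3, and at 21.9 CPM in PARP3-/- replicate 1 against 12.9 and 12.8. Replicate 1 was thus 2.47 times the mean of the other two in WT and 1.71 times in PARP3-/-. HOXB4 had the same split, with ratios of 2.42 and 1.496. The log2 fold change of HOXB9 was -0.07 with all libraries and 0.20 with both replicate 1 libraries left out, neither past the threshold (adjusted p = 0.974 and 0.157). HOXB6 was at 8.30, 7.29 and 7.73 CPM in WT and at 8.63, 7.54 and 8.13 CPM in PARP3-/-, with overlapping genotypes.

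HOXD8 and HOXD9 led HOXD. HOXD8 was at 20.0, 20.0 and 21.97 CPM in WT and at 21.3, 19.7 and 19.7 CPM in PARP3-/-, a log2 fold change of -0.03 with a standard error of 0.08. HOXD9 was at 9.97, 9.01 and 10.1 CPM in WT and at 9.26, 7.99 and 9.05 CPM in PARP3-/- (log2 fold change -0.14, adjusted p = 0.635). HOXD13, the most posterior gene, came next and is described with the genes that differed.

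**Figure D1:**
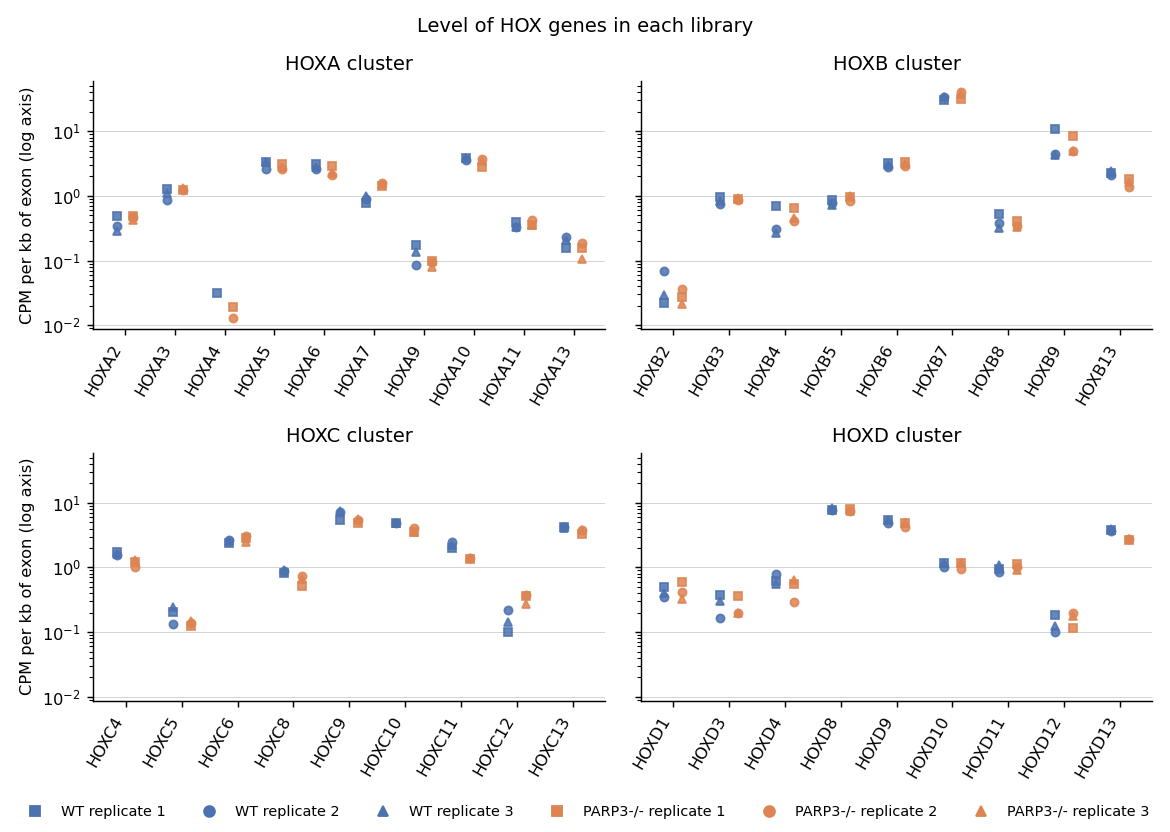
Level of HOX genes in each library, in CPM per kb of exon on a log axis, by cluster and ordered from anterior to posterior, with WT in blue and PARP3-/- in orange. HOXB7 lies above every other gene in all 6 libraries. The squares of replicate 1 stand above the other libraries for HOXB4, HOXB9 and HOXD3, among others, and libraries at 0 counts of HOXA4 are not drawn.

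Levels of most members were close between the genotypes. Ranked by mean CPM, the 38 genes had nearly the same order in WT and PARP3-/- (Spearman's rho 0.97, a description over genes measured in the same 6 libraries). The summed level of all members was 237, 221 and 230 CPM in WT and 220, 222 and 218 CPM in PARP3-/-. Over the 35 tested genes 21 log2 fold changes were negative and 14 positive, with a median of -0.07 against -0.01 over all tested genes.

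HOXC11 and HOXD13 were lower in PARP3-/- cells and HOXA7 was higher. That is 2 of 35 tested members lower, where 3.33% of all tested genes were called lower, and 1 of 35 higher, where 1.36% of all genes were called higher. An unadjusted p under 0.05 was found for 8 of the 35 members and for 16.3% of all tested genes. DESeq2 called the same 3 genes, in the same directions, with 3.84% of its genes lower and 2.09% higher. With the replicate block 6 members were lower (12.5% of all genes) and 3 higher (11.8%). With both replicate 1 libraries left out 5 were lower (10.1%) and 2 higher (8.91%). With all 6 libraries, 26 of the 35 tested members passed the threshold neither with nor without the block.

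HOXC11 (ENSG00000123388, chr12:53973126-53977643) encodes a posterior HOX protein of the abdominal-B type. It was at 6.46, 8.08 and 7.22 CPM in WT and at 4.45, 4.65 and 4.55 CPM in PARP3-/-. All 3 WT libraries lay above all 3 PARP3-/- libraries, which had an SD of 0.0997 CPM. The WT level was 1.59 times that of PARP3-/- (log2 fold change -0.67, standard error 0.13, adjusted p = 0.0328; 0.00081 with the block and 0.00242 without the replicate 1 libraries). Leaving out a single library gave log2 fold changes from -0.75 to -0.59 and adjusted p-values from 0.0237 to 0.155, and the call was kept only without WT replicate 1.

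HOXD13 (ENSG00000128714, chr2:176092891-176095938) patterns the digits and the genital tubercle. It was at 9.15, 8.77 and 9.66 CPM in WT and at 6.51, 6.62 and 6.72 CPM in PARP3-/-, without overlap. WT exceeded PARP3-/- 1.39 times (log2 fold change -0.47, standard error 0.10), and the adjusted p of 0.0499 was at the edge of the threshold. The adjusted p was 0.00287 with the block, 0.0155 without the replicate 1 libraries and 0.0701 to 0.212 when any 1 of the 6 libraries was left out.

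HOXA7 (ENSG00000122592, chr7:27153716-27157936), a central gene of HOXA, moved the other way. It was at 1.89, 2.19 and 2.41 CPM in WT and at 3.45, 3.84 and 3.65 CPM in PARP3-/-, so every PARP3-/- library lay above every WT library. The level in PARP3-/- was 1.68 times that in WT (log2 fold change 0.75, standard error 0.15, adjusted p = 0.0407; 0.00216 with the block and 0.0119 without the replicate 1 libraries). With any 1 library left out the log2 fold change stayed between 0.66 and 0.84 and the adjusted p between 0.0669 and 0.183. The antisense gene HOXA-AS3 overlaps 62.5% of the exon bases of HOXA7 in GENCODE 44. The libraries were strand-specific, the strand setting of the counting is not given in the sources used here, and HOXA-AS3 itself had 2 to 7 counts per library.

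The homeobox, the 180 bases of coding sequence for the DNA-binding homeodomain, is the part conserved across the whole family, and it is printed for paralogue groups 11 and 13 so that the differing bases can be seen. Sequences are the hg38 reference on the coding strand, and capitals mark the bases that differ from the first gene of each set. HOXC11 lies at chr12:53975192-53975371 (plus strand), HOXA11 at chr7:27182838-27183017 (minus) and HOXD11 at chr2:176108921-176109100 (plus).
HOXC11: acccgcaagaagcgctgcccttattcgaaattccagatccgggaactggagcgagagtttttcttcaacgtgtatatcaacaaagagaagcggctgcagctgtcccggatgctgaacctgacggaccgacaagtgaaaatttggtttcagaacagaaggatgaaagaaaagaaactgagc
HOXA11: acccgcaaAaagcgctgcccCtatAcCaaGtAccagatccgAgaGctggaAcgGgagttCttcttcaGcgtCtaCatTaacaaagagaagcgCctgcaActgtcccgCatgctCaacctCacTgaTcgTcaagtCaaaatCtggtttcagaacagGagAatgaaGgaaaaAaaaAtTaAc
HOXD11: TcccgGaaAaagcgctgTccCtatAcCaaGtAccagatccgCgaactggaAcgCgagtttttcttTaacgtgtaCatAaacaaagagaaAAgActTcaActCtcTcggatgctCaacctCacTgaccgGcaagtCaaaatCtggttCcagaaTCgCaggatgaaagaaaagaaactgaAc
HOXA11 differed from HOXC11 at 32 of 180 bases and HOXD11 at 33. Neither gene was called. HOXA11 was at 0.943 CPM in WT and 1.01 in PARP3-/- (log2 fold change 0.11, adjusted p = 0.873) and HOXD11 at 2.03 and 2.18 CPM (0.10, adjusted p = 0.873).

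For HOXB7, the abundant paralogue of HOXA7, the log2 fold change was 0.17 ± 0.11 (SE, adjusted p = 0.547). With the block its adjusted p was 0.0428 and without the replicate 1 libraries 0.0355, and its WT and PARP3-/- libraries overlapped.

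All 4 genes of paralogue group 13 were measured. Their homeoboxes lie at chr2:176094524-176094703 (HOXD13, plus strand), chr7:27198222-27198401 (HOXA13, minus), chr17:48726820-48726999 (HOXB13, minus) and chr12:53945041-53945220 (HOXC13, plus).
HOXD13: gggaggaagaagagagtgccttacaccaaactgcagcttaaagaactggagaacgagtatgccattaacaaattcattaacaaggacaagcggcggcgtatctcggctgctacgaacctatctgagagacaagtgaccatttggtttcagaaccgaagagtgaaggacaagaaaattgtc
HOXA13: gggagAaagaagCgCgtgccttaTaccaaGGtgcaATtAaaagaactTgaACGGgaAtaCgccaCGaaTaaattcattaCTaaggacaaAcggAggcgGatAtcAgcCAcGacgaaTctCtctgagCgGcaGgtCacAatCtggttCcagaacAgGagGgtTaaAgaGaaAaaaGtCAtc
HOXB13: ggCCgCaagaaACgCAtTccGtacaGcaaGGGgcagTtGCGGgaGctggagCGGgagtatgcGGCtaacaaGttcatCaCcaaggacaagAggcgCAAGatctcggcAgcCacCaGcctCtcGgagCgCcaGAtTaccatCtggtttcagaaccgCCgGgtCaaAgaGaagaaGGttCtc
HOXC13: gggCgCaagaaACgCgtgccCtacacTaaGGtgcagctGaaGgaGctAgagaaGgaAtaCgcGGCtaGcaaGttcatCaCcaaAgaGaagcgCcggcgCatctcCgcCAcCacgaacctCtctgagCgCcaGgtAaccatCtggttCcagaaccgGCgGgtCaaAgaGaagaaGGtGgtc
HOXA13, HOXB13 and HOXC13 shared 73.3%, 70.0% and 73.9% of these bases with HOXD13, where the median identity was 81.7% within paralogue groups and 60.6% between them. Only 7 pairs of members shared any run of 40 bases in the 1 transcript per gene that was compared, and none of the pairs held HOXC11 or HOXD13. HOXA7 shared 2 windows of 40 bases, both with HOXA6. Windows were taken at every base, so these 2 may overlap.

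All 4 group 13 genes had negative log2 fold changes, from -0.50 to -0.20. HOXB13, a factor of the prostate and hindgut, was at 6.96, 6.34 and 7.41 CPM in WT and at 5.58, 4.20 and 4.92 CPM in PARP3-/-, without overlap (log2 fold change -0.50, standard error 0.15, adjusted p = 0.132; 0.00551 with the block and 0.0155 without the replicate 1 libraries). HOXC13, a regulator of hair keratins, was at 9.81, 9.89 and 9.66 CPM in WT and at 7.67, 8.96 and 8.89 CPM in PARP3-/-, also without overlap (-0.20, adjusted p = 0.437; 0.13 with the block). HOXA13 was low and variable, with 20 to 50 counts (-0.40, adjusted p = 0.587). The summed level of the group was 26.9 CPM in WT and 20.8 CPM in PARP3-/-.

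The promoter of HOXD13 is shown because its first exon in GENCODE 44 begins right after the window, upstream of the gene start in the deposited table. The 250 bases before its start in RefSeq (GRCh38.p14, chr2:176092471-176092720, plus strand) read as follows, with capitals marking, on either strand, the TATA box (TATAAA), the box bound by NF-Y (CCAAT) and the box bound by Sp1 (GGGCGG).
HOXD13 promoter: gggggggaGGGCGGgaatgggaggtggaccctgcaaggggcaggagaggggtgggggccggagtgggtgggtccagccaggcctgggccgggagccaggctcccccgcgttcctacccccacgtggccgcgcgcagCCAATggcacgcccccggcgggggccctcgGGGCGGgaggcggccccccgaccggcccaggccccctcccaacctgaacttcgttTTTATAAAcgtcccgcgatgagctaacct
Promoter entries, each running from 250 bases before to 50 after a start, were at hand for 19 of the 38 members, with 26 entries at 25 distinct windows, since HOXC4 and HOXC5 have the same one. TATAAA was found in 5 of the 25 and in 11.57% of all 34943 distinct windows, CCAAT in 16 of 25 and 34.65%, and GGGCGG in 13 of 25 and 44.87%. TGATTNAT, a motif bound by PBX and HOX proteins together, was in 2 of 25 and in 2.82% of all, and not in the HOXD13 window. These matches are a description of the letters in these windows.

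**Figure D2:**
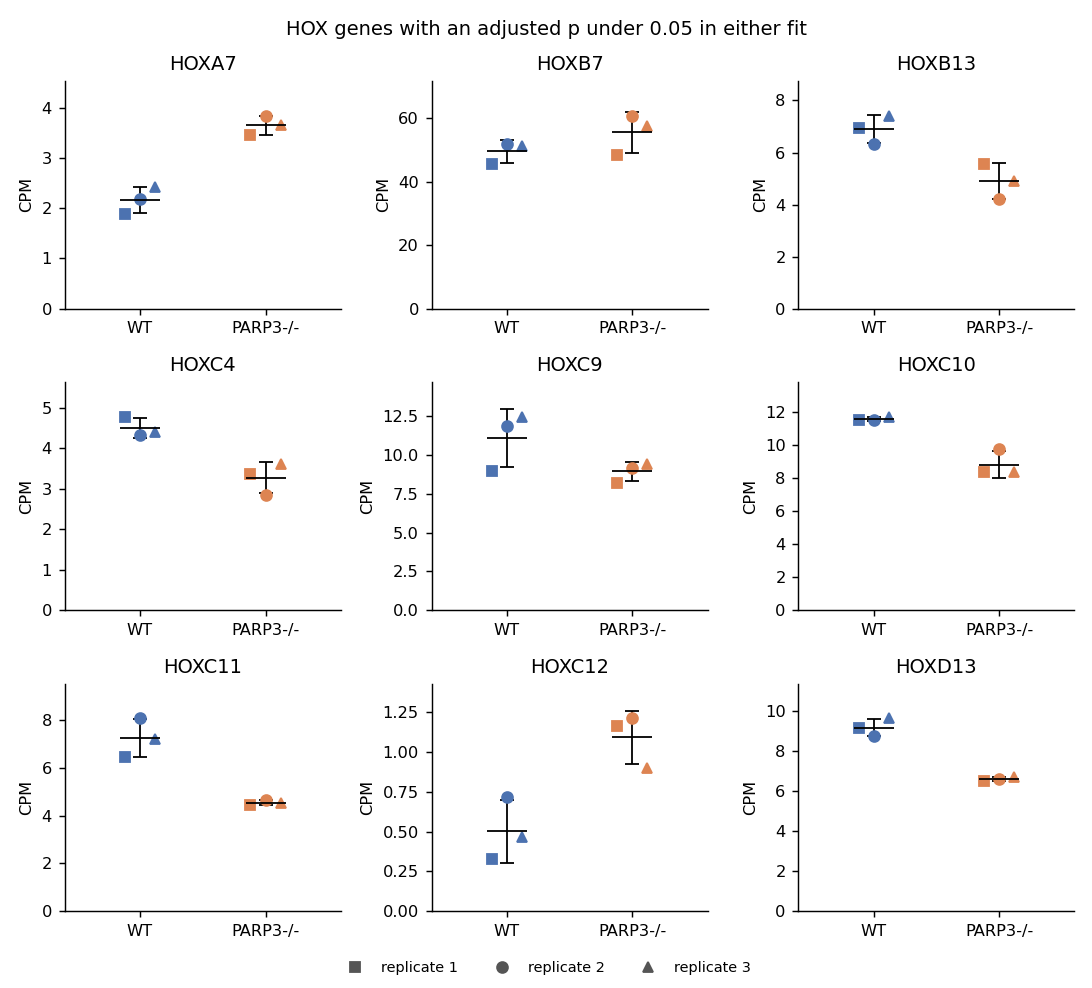
CPM in each library of the 9 HOX genes with an adjusted p under 0.05 without or with the replicate block, with symbols for replicates 1 to 3 and bars for the mean ± SD (n = 3). WT and PARP3-/- do not overlap for 7 of the 9 genes, and they overlap for HOXB7 and HOXC9. The genes were chosen by tests on these same libraries, a choice that favours genes without overlap.

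The 26 tested members called neither with nor without the block had log2 fold changes from -0.52 (HOXA9) to 0.33 (HOXA2). The anterior genes, which act in the hindbrain and neck, were at low to moderate levels, with HOXA2 at 0.864 CPM in WT and 1.08 in PARP3-/-, HOXA3 at 4.69 and 5.42, HOXB3 at 6.30 and 6.62, HOXD1 at 0.785 and 0.841, and HOXD3 at 1.05 and 0.94. Of the central genes, HOXB4 was at 0.851 and 1.01 CPM, HOXB5 at 1.46 and 1.72, HOXB8 at 0.982 and 0.874 and HOXD4 at 0.751 and 0.561. Of the posterior ones, HOXD10 had 87 to 121 counts per library and HOXD12 had 9 to 23. For each of the 11 genes whose levels are given here the libraries of the 2 genotypes overlapped. Among the 26, HOXC8 and HOXC13 had every PARP3-/- library below every WT library.

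By cluster, HOXC was the one whose summed level did not overlap between the genotypes. It was 52.4, 57.8 and 57.4 CPM in WT and 44.4, 49.0 and 46.3 CPM in PARP3-/-, every WT library being above every PARP3-/- library (55.9 ± 3.03 against 46.6 ± 2.29 CPM, SD, n = 3). HOXA was at 35.7 ± 2.31 CPM in WT and 35.2 ± 1.19 in PARP3-/-, HOXB at 90.6 ± 8.01 and 94.8 ± 0.793, and HOXD at 47.3 ± 2.64 and 43.3 ± 2.33, all 3 with overlapping libraries. The median log2 fold change of the tested members was -0.35 in HOXC (8 genes), -0.08 in HOXA (10), 0.07 in HOXB (8) and -0.06 in HOXD (9). HOXC thus made up 24.3% of the summed HOX level in WT and 21.2% in PARP3-/-, and HOXB 39.5% and 43.1%.

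**Figure D3:**
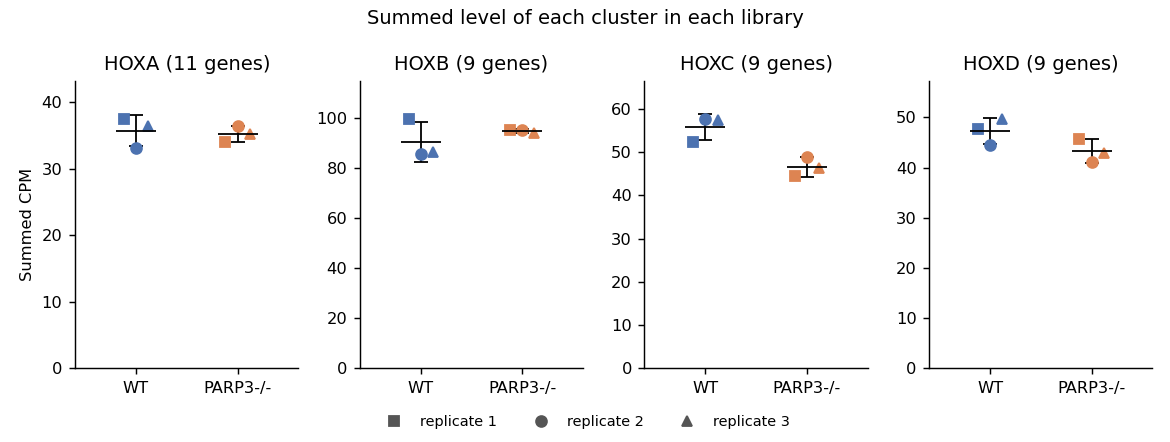
Summed CPM of each HOX cluster in each library, with symbols for replicates 1 to 3 and bars for the mean ± SD (n = 3), on axes that start at 0. The 3 WT libraries lie above the 3 PARP3-/- libraries for HOXC and overlap them for HOXA, HOXB and HOXD.

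Within HOXC 6 of 8 tested genes had negative log2 fold changes. HOXC10, a posterior gene, was at 11.5, 11.5 and 11.7 CPM in WT and at 8.33, 9.72 and 8.36 CPM in PARP3-/- (log2 fold change -0.39, adjusted p = 0.102; 0.0071 with the block and 0.0407 without the replicate 1 libraries). HOXC9 was at 8.98, 11.9 and 12.5 CPM in WT and at 8.23, 9.18 and 9.42 CPM in PARP3-/-, and replicate 1 was the lowest library of each genotype (-0.31, adjusted p = 0.37; 0.0252 with the block and 0.0188 without the replicate 1 libraries). HOXC4, the most anterior gene of the cluster, was at 4.77, 4.31 and 4.39 CPM in WT and at 3.35, 2.85 and 3.60 CPM in PARP3-/- (-0.46, adjusted p = 0.158; 0.0188 with the block and 0.0804 without the replicate 1 libraries). Exons of HOXC4 and HOXC6 share 17.5% of the bases of HOXC4, and reads there are left out by the counting. Bases shared with genes on the same strand made up 21.4% of HOXD11, 18.2% of HOXD10, 16.6% of HOXB6 and 16.1% of HOXC6. For the other members they were at most 6.4%. The levels per kb divide by all exon bases, these included.

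HOXC8, which patterns the thorax, was at 2.00, 2.15 and 2.17 CPM in WT and at 1.23, 1.75 and 1.62 CPM in PARP3-/-. Its genotypes did not overlap, and neither fit called it (log2 fold change -0.45, adjusted p = 0.285; 0.0682 with the block). HOXC6 (8.22, 9.06 and 8.97 CPM in WT, 9.79, 10.4 and 8.68 in PARP3-/-) had a log2 fold change of 0.14 (adjusted p = 0.662). HOXC12 lies between HOXC11 and HOXC13 and was far less abundant. It had 12, 30 and 19 counts in WT and 35, 54 and 34 in PARP3-/-, that is 0.329, 0.715 and 0.463 against 1.16, 1.21 and 0.90 CPM. Every PARP3-/- library exceeded every WT library (log2 fold change 1.103, standard error 0.31, adjusted p = 0.111; 0.0111 with the block and 0.077 without the replicate 1 libraries).

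The members were also read by position across the 4 clusters. Of 16 tested posterior genes (groups 9 to 13) 12 had negative log2 fold changes, with a median of -0.18. Over all tested genes 8790 of 17144 were negative. Of 13 central genes (groups 4 to 8) 7 were negative (median -0.03), and of 6 anterior genes (groups 1 to 3) 2 were negative (median 0.08). edgeR called no anterior gene with or without the block, none had an unadjusted p under 0.05, and DESeq2 called none. Of the 6 members lower with the block 5 were posterior, as were 16 of the 35 tested members. HOXC9, HOXC10 and HOXC11 are among these 5, and position was not separated from cluster. In the fit to all libraries without the block every tested gene of groups 8, 9, 10 and 13 was negative, and both genes of groups 7 and 12 were positive. HOXB9 of group 9 was positive with the block (0.0089) and without the replicate 1 libraries (0.20), and HOXB8, HOXB9, HOXD8 and HOXD10 each turned positive with at least 1 single library left out (up to 0.04, 0.50, 0.02 and 0.04). Of the 35 tested members 7 had every PARP3-/- library below every WT library (12.0% of all tested genes), namely HOXB13, HOXC4, HOXC8, HOXC10, HOXC11, HOXC13 and HOXD13. The reverse held for 2, HOXA7 and HOXC12 (10.8% of all tested genes).

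**Figure D4:**
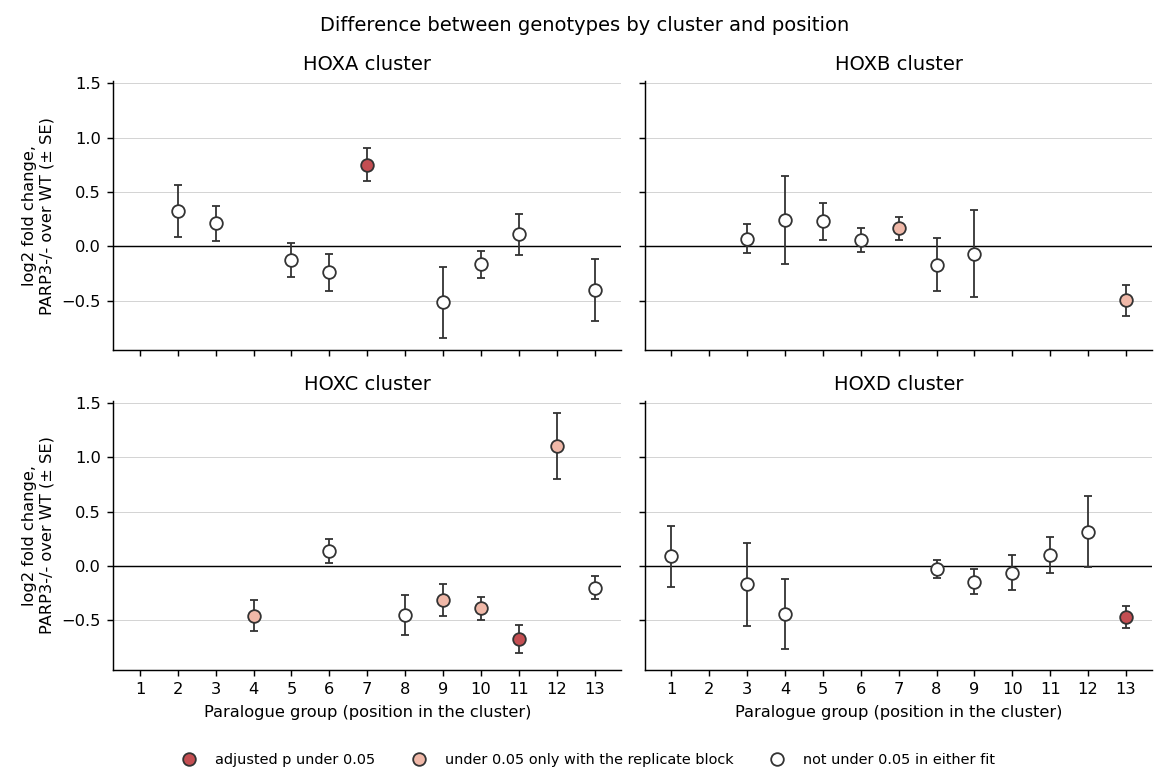
log2 fold change of PARP3-/- over WT with its standard error for tested HOX genes, by cluster and paralogue group, filled by the fit that called them. Without the block HOXC11 and HOXD13 were called below 0 and HOXA7 above 0, and HOXA4, HOXB2 and HOXC5 were not tested.

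Other genes that overlap the clusters, mostly antisense and long noncoding RNAs, numbered 32, and 10 of them were tested. Their log2 fold changes were negative for 9 of 10 (median -0.29). edgeR called none, 3 had an unadjusted p under 0.05 (16.3% of all tested genes), and DESeq2 called none. With the block 3 were lower (12.5% of all genes), HOTAIR, HOXC13-AS and HOXD-AS2. HOTAIR, a long noncoding RNA transcribed antisense between HOXC11 and HOXC12 and known to bind PRC2, shares no exon bases with HOXC11 in GENCODE 44. It was at 4.08, 3.91 and 4.10 CPM in WT and at 3.19, 2.65 and 2.59 CPM in PARP3-/- (log2 fold change -0.52, adjusted p = 0.106; 0.0121 with the block). HOXC13-AS was at 2.47, 2.62 and 2.15 CPM in WT and at 1.29, 1.57 and 1.80 CPM in PARP3-/- (-0.63, adjusted p = 0.13; 0.0231 with the block). HOXD-AS2 was at 5.09, 3.98 and 4.41 CPM in WT and at 3.68, 2.96 and 3.63 CPM in PARP3-/- (-0.39, adjusted p = 0.288; 0.0326 with the block). Of the 10 tested, 5 had every PARP3-/- library below every WT library (12.0% of all tested genes), namely these 3 RNAs, HOTAIRM1 and HOXC-AS1. HAGLR, at the anterior end of HOXD, was the most abundant of the 10, with 9.41 ± 2.08 CPM in WT and 8.82 ± 2.46 in PARP3-/- (adjusted p = 0.921). HOTAIRM1 and HOXA-AS2, in HOXA, were at 3.82 and 1.75 CPM in WT and at 3.09 and 1.91 CPM in PARP3-/-, and neither was called. In HOXB only AC103702.1 was tested, at 0.839 and 0.614 CPM (adjusted p = 0.662).

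The genes on either side of HOXC also had mostly negative values. Within 500 kb of the cluster 15 protein-coding genes were tested and 14 had negative log2 fold changes, with a median of -0.21, where chromosome 12 as a whole had a median of -0.04 over 968 genes. The flanking medians were 0.01 around HOXA (2 genes), 0.07 around HOXB (7) and 0.04 around HOXD (2). TARBP2, the double-stranded RNA-binding partner of Dicer, was at 42.3, 42.5 and 40.4 CPM in WT and at 32.2, 30.8 and 31.4 CPM in PARP3-/- (-0.41, adjusted p = 0.0194). NFE2, an erythroid factor, fell from 0.77 ± 0.25 to 0.236 ± 0.058 CPM (-1.71, adjusted p = 0.0473). It had 34, 20 and 37 counts in WT and 9, 10 and 7 in PARP3-/-, so its values are limited by depth. GTSF1, a piRNA pathway factor, rose from 16.5 ± 1.55 to 26.9 ± 1.43 CPM (0.70, adjusted p = 0.0097). With the block 7 of the 15 were lower, among them PCBP2, SMUG1 and ATP5G2 (12.5% of all genes), and 1 was higher (11.8%). The 2 most abundant flanking genes, CBX5 and HNRNPA1, had log2 fold changes of -0.04 and -0.18 (adjusted p = 0.899 and 0.369).

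**Figure D5:**
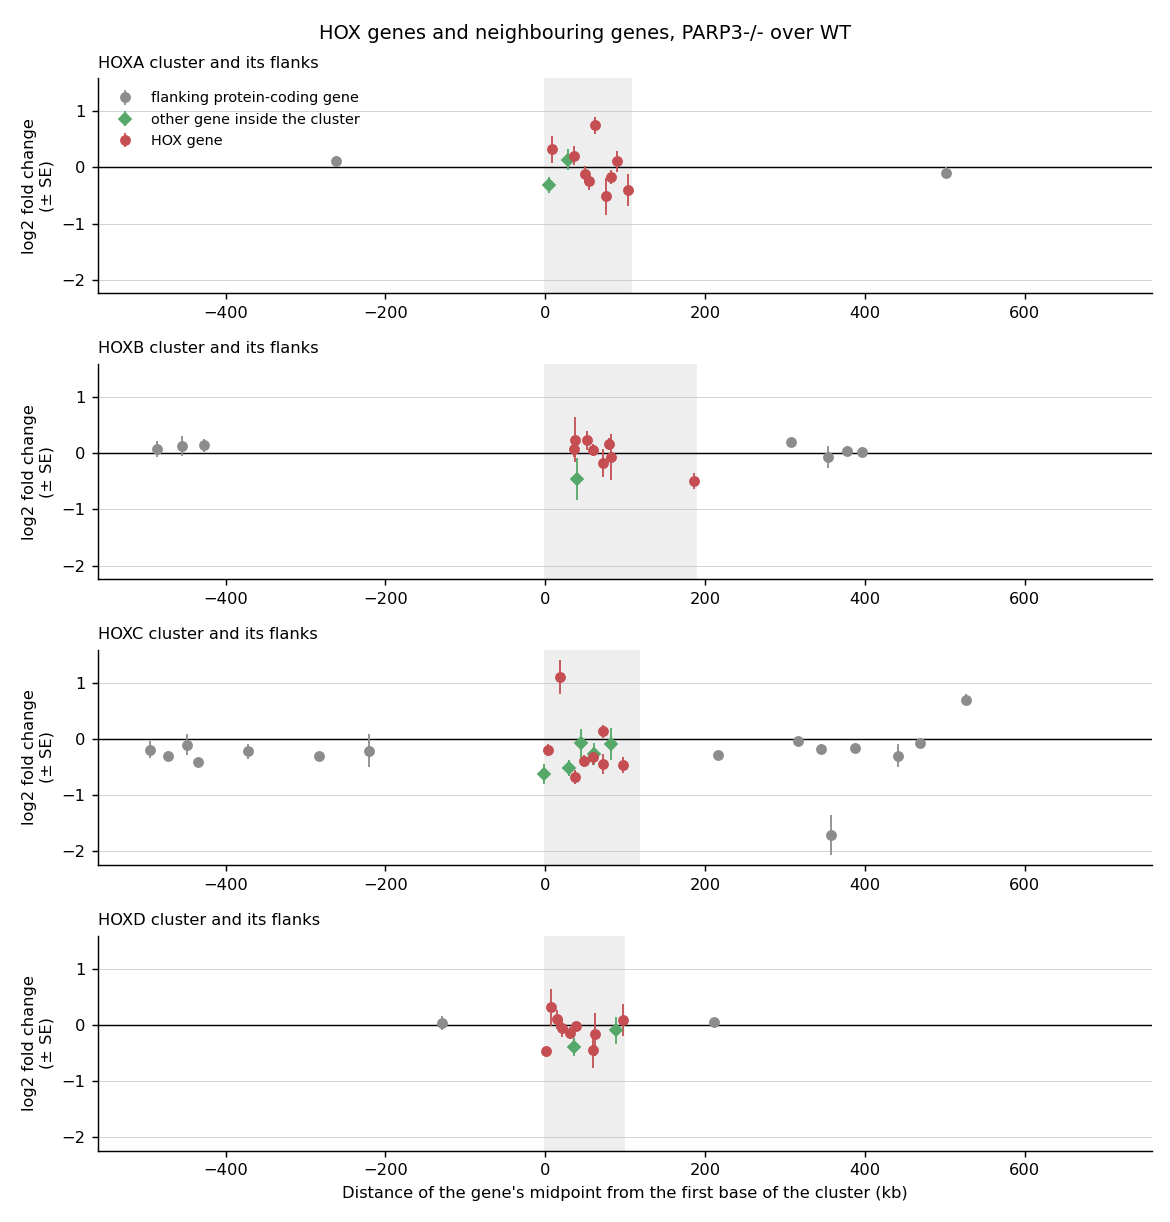
log2 fold change of PARP3-/- over WT with its standard error for tested HOX genes (red), other genes inside each cluster (green) and protein-coding genes within 500 kb (grey), against the distance in kb of the midpoint of the gene from the first base of the cluster, which is shaded. Around HOXC 14 of 15 flanking genes lie below 0, and around HOXA, HOXB and HOXD the flanking genes lie between -0.10 and 0.20.

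Genes that act on the HOX clusters or with their products were read from lists. Of the 9 TALE cofactors edgeR called none, 3 had an unadjusted p under 0.05 (16.3% of all tested genes), and DESeq2 called 1 lower (3.84% of its genes). That gene was MEIS1, at 25.7, 19.1 and 23.4 CPM in WT and 17.5, 15.7 and 15.8 CPM in PARP3-/- (log2 fold change -0.48, adjusted p = 0.095; 0.00109 with the block). MEIS2 had a positive log2 fold change (0.29, adjusted p = 0.228) and was higher with the block (0.00197). The list's median was 0.05, and with the block 1 of the 9 was lower and 2 were higher (12.5% and 11.8% of all genes).

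Of the 11 PRC2 genes, which place the repressive H3K27 methylation mark, edgeR called none. An unadjusted p under 0.05 was found for 2 (16.3% of all tested genes). DESeq2 called 1 lower and 1 higher (3.84% and 2.09% of its genes). The subunit AEBP2 was at 57.8, 61.5 and 62.6 CPM in WT and 49.2, 47.9 and 49.1 CPM in PARP3-/- (-0.32, adjusted p = 0.0528; 0.00127 with the block). JARID2, which recruits PRC2, was at 81.5, 70.3 and 78.4 CPM in WT and 91.3, 102 and 96.8 CPM in PARP3-/- (0.33, adjusted p = 0.0936; 0.00404 with the block). EZH2, the methyltransferase itself, was higher with the block alone (0.19, adjusted p = 0.67; 0.0161 with the block). In that fit 1 of the 11 was lower (12.5% of all genes) and 2 were higher (11.8%). Of 20 PRC1 genes edgeR called none and DESeq2 none, with 1 unadjusted p under 0.05 (16.3% of all tested genes). With the block 3 of the 20 were higher (11.8% of all genes) and none lower (12.5%). CBX2 and PCGF2 were among these 3 (log2 fold changes 0.27 and 0.31 without the block). Of 19 genes of the MLL complexes, their partners and the H3K27 demethylases neither tool called any and none had an unadjusted p under 0.05. With the block 1 of the 19 was lower, KMT2D, and 1 was higher, KMT2C (12.5% and 11.8% of all genes). CTCF, cohesin and related loop factors (9 genes) had no call in any of these fits and no unadjusted p under 0.05, and the 2 most abundant, STAG2 and RAD21, had log2 fold changes of -0.07 and -0.09. The medians of these lists were 0.09 for PRC2, 0.05 for PRC1, 0.04 for MLL and -0.03 for the loop factors.

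Retinoic acid genes were the only regulator list with calls in the fit without the block. There 3 of 16 tested were lower (3.33% of all tested genes) and none higher (1.36%). DESeq2 called 3 lower (3.84% of its genes) and 1 higher (2.09%), ALDH1A3 (adjusted p = 0.00174). STRA6, the retinol uptake receptor, was at 63.7, 34.9 and 42.3 CPM in WT and at 18.8, 10.3 and 10.4 CPM in PARP3-/- (log2 fold change -1.84, adjusted p = 0.0209). ALDH1A1, a retinaldehyde dehydrogenase, fell from 1.88 ± 0.08 to 0.674 ± 0.241 CPM (-1.47, adjusted p = 0.0236). ALDH1A3, which carries out the same step, was by far the more abundant enzyme, with 1983 ± 103 CPM in WT and 2468 ± 56 in PARP3-/- (0.32, adjusted p = 0.173; 0.00405 with the block). The list's median was -0.01, and whether these genes bear on the HOX levels was not tested. Of the ParaHox genes and their even-skipped relatives only CDX1 and EVX2 were listed, with at most 6 counts between them in a library.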

How the data were processed

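Total RNA depleted of ribosomal RNA was sequenced from 3 WT and 3 PARP3-/- LN229 samples, grouped and numbered by their labels, although the labels name the molecule as polyA RNA. The authors trimmed reads with cutadapt 1.10, removed ribosomal and spike-in reads with Bowtie2 2.2.8, aligned the rest to hg38 with STAR 2.5.3a and counted reads per Ensembl gene with HTSeq 0.6.1p1 in union mode, which drops reads that overlap several genes. The deposited raw counts are used here, together with the deposited median transcript length. A further 12 columns of normalized values per sample were not used, nor were 3 columns of the authors' own comparison (log2 ratio, p-value and adjusted p-value).

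Counts were analysed in R 4.3.3 with edgeR 4.0.16 (TMM, filterByExpr with a minimum count of 10, quasi-likelihood test, Benjamini-Hochberg adjustment over all 17144 tested genes). The main model held the genotype alone. Standard errors were derived from the log2 fold change and the test's F value. Deviations from the group mean correlated at 0.68, 0.52 and 0.24 between same-numbered WT and PARP3-/- libraries, each above the limit of 0.1 set for taking the numbers as pairs. Between different numbers they ran from -0.63 to 0.41, and WT replicate 2 with PARP3-/- replicate 3 (0.41) and WT replicate 3 with PARP3-/- replicate 2 (0.26) exceeded the value for replicate 3. Calls with a replicate block are given where they differ. Alternatives were DESeq2 1.42.0, RLE size factors, no filter, a mean count of at least 50, a replicate block, each library left out, and a stricter call (adjusted p under 0.001, log2 fold change beyond 1). Leaving out both replicate 1 libraries was added after the data had been seen. The procedure was tested on simulated counts. Lengths, overlaps and homeoboxes come from GENCODE 44, and promoters from RefSeq (GRCh38.p14). Described are all genes called with or without the block, the 3 highest per cluster and PARP3. Some genes and sequences are not reported here. Members, lists and tests were chosen with earlier results of these data known.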

Additional observations from a re-analysis of the deposited data

How the results depend on the processing

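HOXC11, HOXD13 and HOXA7 kept their direction in every alternative run. HOXD13, at adjusted p = 0.0499, lost its call with RLE size factors (0.0519), without a filter (0.1) and at a mean count of at least 50 (0.054), which leaves 1 HOX gene called lower in each of these. With single libraries left out 0 to 1 HOX genes were lower and 0 higher. A change of sign was seen for 9 of 35 tested members with a single library left out, and for HOXB9 with the block, none of them called. The replicate block, which pairs same-numbered libraries, gave 6 lower and 3 higher HOX genes, and 5 and 2 without both replicate 1 libraries. The stricter call gave 0 and 0.

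Over all genes, 571 were lower and 234 higher. The block gave 2143 and 2023, leaving out both replicate 1 libraries 1739 and 1536, DESeq2 871 and 475, the stricter call 76 and 6, and a mean count of at least 50 gave 331 lower. Single libraries left out gave 281 to 606 lower and 49 to 259 higher. Genes inside the clusters had 0 calls, 3 lower with the block and 1 without both replicate 1 libraries. Of the flanking genes 2 were lower and 1 higher, against 7 and 2 with the block, 5 and 3 without both replicate 1 libraries, 4 lower with DESeq2, 1 lower at a mean count of at least 50, and 0 to 1 in each direction with single libraries left out. The regulator lists had 3 lower and 0 higher, against 8 and 9 with the block, 7 and 11 without both replicate 1 libraries, 5 and 2 with DESeq2, and 1 to 4 lower with single libraries left out. Calls other than these stayed within 1.5 times. At 12 to 54 counts the values of HOXC12 are limited by depth.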
